A study of Homo sapiens with 12 samples.

Results

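A set of 33 messenger RNAs of the endoplasmic reticulum (ER) protein-folding and import machinery was followed through RNA immunoprecipitation of ADAR3. The 33 members were taken by Ensembl ID from a list of chaperones, disulfide bond enzymes, translocation factors, signal recognition particle proteins and unfolded protein response regulators. All 33 were present among the 31707 genes of the deposited tables. The IDs are not paired with symbols in the files, so no gene outside this list is named, and markers of the cell type were not analysed here.

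The ER is the compartment in which secreted and membrane proteins are made and folded. A signal recognition particle docks the ribosome at the Sec61 channel, signal peptidase removes the signal peptide, and luminal chaperones fold the product. When unfolded protein accumulates, the sensors IRE1 (encoded by ERN1), PERK and ATF6 start the unfolded protein response, which raises transcription of chaperone genes. Messenger RNAs of secreted and ER proteins are themselves translated at the ER membrane.

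The material was U373-MG, a human glioblastoma cell line, grown in culture without any treatment or genetic change named in the labels. Cells of all 3 groups were crosslinked with ultraviolet light at 150 mJ/cm2, lysed and sonicated, and RNA was depleted of ribosomal RNA before library preparation with 15 cycles of amplification, per the labels' protocols. A separate label gives the molecule as polyA RNA, at odds with depletion, so which RNA classes the read shares cover is uncertain. ADAR3 binds double-stranded RNA like the RNA-editing enzymes it is related to, but is not known to edit. The groups were an immunoprecipitation (IP) with ADAR3 antibody, a control IP with pre-immune serum, called serum IP here, and input RNA, with 4 libraries each. Input libraries were made from 1 µg of total RNA and IP libraries from all RNA recovered, so amounts of RNA recovered cannot be compared, only shares of reads. Whether replicates are separate cultures is not stated, so p-values reflect only how far these libraries scatter, which may be technical scatter. The RNA is from bulk cells, in which fewer cells with an mRNA and less of it per cell cannot be told apart.

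Reads assigned to genes numbered 23999234 to 30156884 in ADAR3 IP libraries, 1875461 to 4946149 in serum libraries and 4873428 to 12772412 in input libraries. Levels are given as CPM, the reads of a gene per 1000000 reads of its library, which puts all 12 libraries on 1 scale although the IP and input tables had been normalized separately. CPM is not corrected for transcript length, so levels are compared between libraries and not between genes. The replicates of the groups spread unequally, with a median SD of log2(CPM + 1) over 32 members of 0.16 in ADAR3 IP, 0.50 in serum IP and 0.085 in input. Of the 33 members, 30 had a read in all 12 libraries. DNAJB9, encoding a DNAJ co-chaperone of BiP, fell under the minimum mean of 5 CPM and was not tested. It had 1.76, 5.80, 2.72 and 2.83 CPM in ADAR3 IP replicates 1 to 4 and 5.56, 5.24, 3.90 and 5.46 CPM in input. In serum IP its 14 reads all came from replicate 1, at 2.83 CPM.

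Taken as a whole, the 33 members took 0.399% ± 0.0195 (SD, n = 4) of the ADAR3 IP reads, 0.432% ± 0.0266 in serum IP and 0.70% ± 0.015 in input. Every library of each IP held a smaller share than every input library, with 0.376% to 0.423% in ADAR3 IP, 0.393% to 0.453% in serum IP and 0.684% to 0.721% in input. The members together were therefore scarcer in both precipitates than in input, and the IPs overlapped in this sum.

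**Figure D1:**
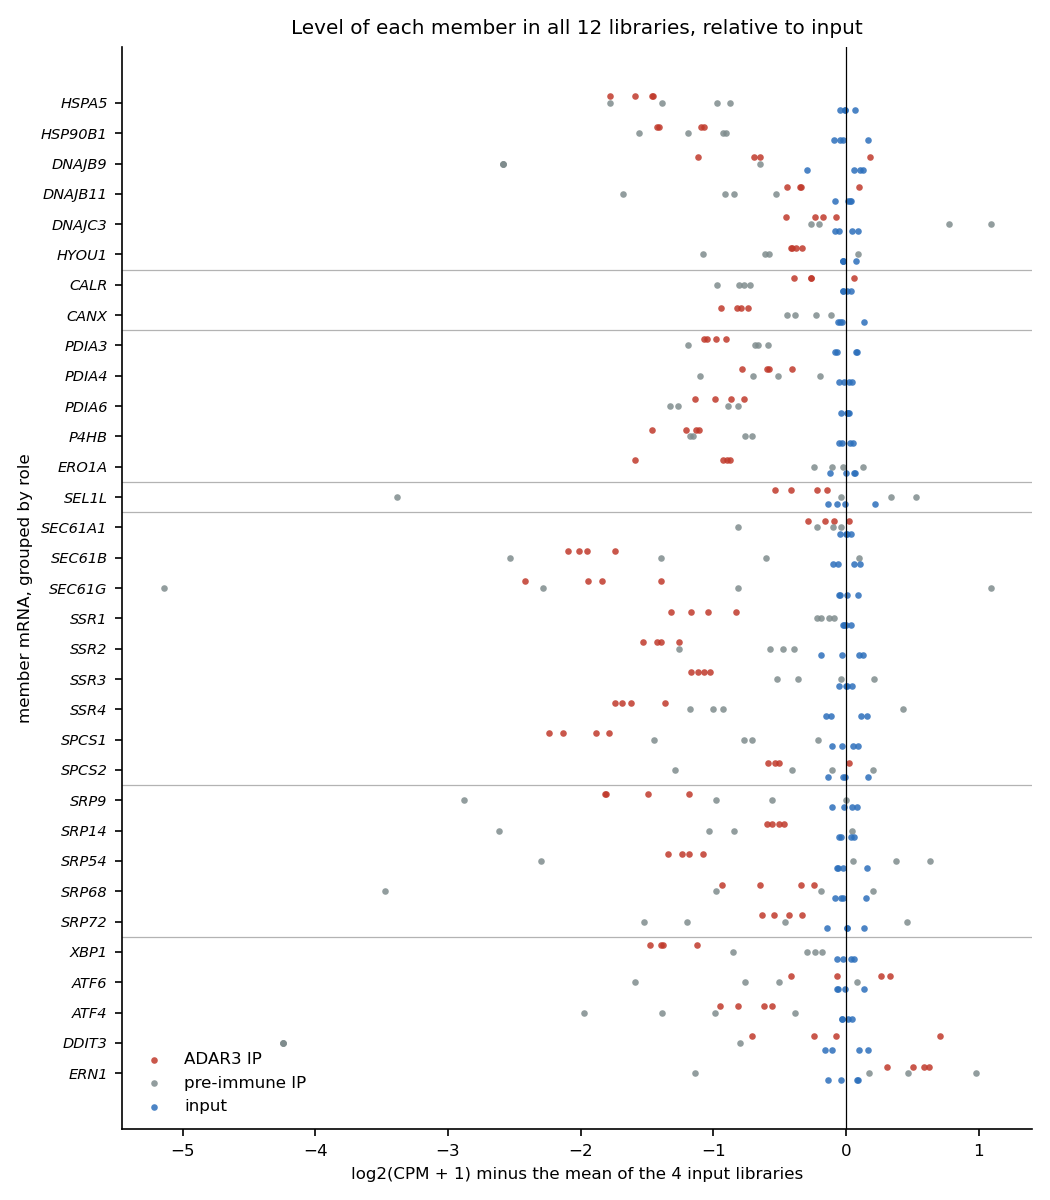
Level of each of the 33 members in the 12 libraries. Serum IP is labelled pre-immune IP in the picture. The x axis is log2(CPM + 1) minus the mean of the 4 input libraries, each point is 1 library and lines separate the roles. ADAR3 IP points lie left of input for most members, while serum points scatter widely. The serum points of DNAJB9 and DDIT3 at the far left are 3 libraries at 0 reads each, drawn on top of each other.

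The comparison of ADAR3 IP with input asks which RNAs were enriched or depleted in the antibody precipitate relative to the cell's RNA. Of the 32 members tested, 27 were lower in ADAR3 IP and 1 was higher (limma on log2(CPM + 1), Benjamini-Hochberg adjusted p under 0.05), where 36.1% of all 11272 genes tested were lower and 32.6% higher. All 4 ADAR3 IP libraries lay below all 4 input libraries for 24 members and above them for 1, against 32.7% and 28.7% of all genes tested. The median log2 fold change was -0.88 over the tested members and -0.04 over all genes tested. The member values ranged from -2.01 to 0.51. The calls of CALR, DNAJB11 and SPCS2 had the largest adjusted p. Each of them was lost when any of several single libraries was left out, which gave 24 to 26 lower members. Leaving out 1 library gave 33.1% to 36.7% of all genes lower. edgeR and DESeq2 also did not call CALR, DNAJB11 or SPCS2. Each gave 24 lower members and 1 higher, against 33.7% and 34.1% of all genes with edgeR and 33.6% and 34.5% with DESeq2.

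**Figure D2:**
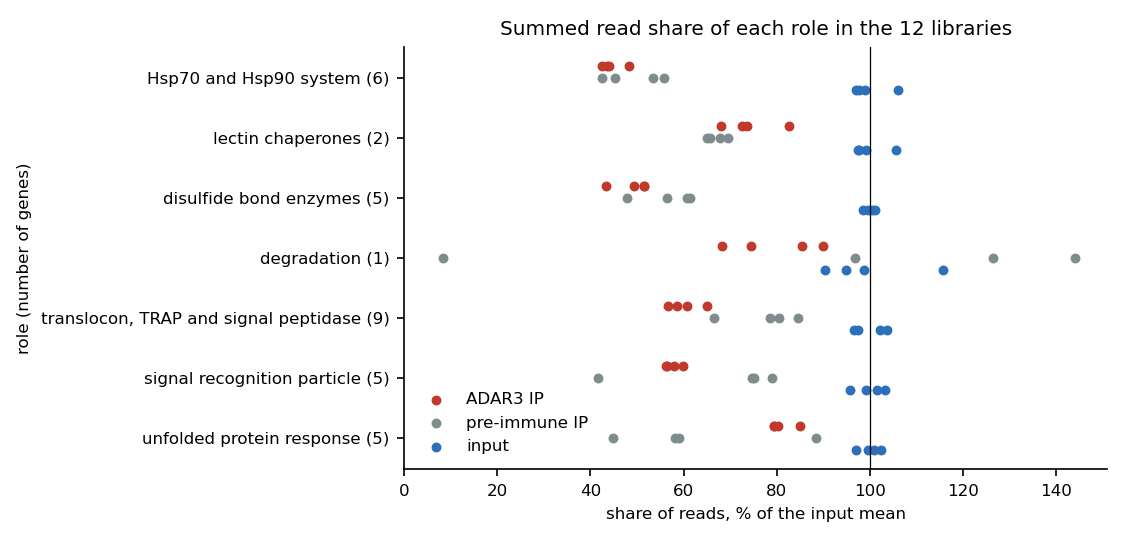
Summed read share of each role in each library, as a percentage of the mean of the 4 input libraries. Points are libraries, and the number of genes in a role is in parentheses. The Hsp70 and Hsp90 system lies at 42.6% to 48.2% in ADAR3 IP and 42.5% to 55.8% in serum IP, while translocon, TRAP and signal peptidase genes lie at 56.6% to 65.0% and 66.5% to 84.7%. These sums are weighted to abundant genes such as HSPA5 and SEC61A1. By gene the order in ADAR3 IP is reversed, with a median of 76.6% of input in the first role and 37.4% in the second.

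Of the Hsp70 and Hsp90 system of the ER lumen, 4 of 5 tested members were called lower than input in ADAR3 IP and 3 of 5 in serum IP. Of all genes tested, 36.1% and 5.52% were called lower in these comparisons. HSPA5 and HSP90B1 fell by more than the median member in both IPs, and the median of the 5 in ADAR3 IP was -0.38. HSPA5 (ENSG00000044574), encoding the central ER Hsp70 BiP, stood at 322, 283, 354 and 352 CPM in ADAR3 IP replicates 1 to 4, at 372, 530.0, 494 and 282 CPM in serum IP and at 1019.9, 940.3, 965 and 964 CPM in input. Every IP library lay far below every input library, and the IPs overlapped. The log2 fold change over input was -1.57 ± 0.08 in ADAR3 IP (SE; limma adjusted p = 6.13e-11) and -1.25 ± 0.18 in serum IP (limma adjusted p = 0.00245).

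HSP90B1, the ER Hsp90 known as GRP94, had 222, 285, 224 and 279 CPM in ADAR3 IP, 261, 319, 202 and 314 CPM in serum IP and 669.9, 587, 561 and 578 CPM in input. Its log2 fold change over input was -1.25 ± 0.09 in ADAR3 IP (SE; limma adjusted p = 6.08e-09) and -1.15 ± 0.15 in serum IP (limma adjusted p = 0.00175). The IPs interleaved, as they did for HSPA5. Between the IPs the log2 difference was -0.32 for HSPA5, with a 95% limma interval of -0.73 to 0.09, and -0.10 for HSP90B1, with an interval of -0.48 to 0.27.

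The other chaperones of this group differed less from input. HYOU1, a large Hsp70-related nucleotide exchange factor of BiP, stood at 153 ± 4.17 CPM in ADAR3 IP (SD, n = 4), 142 ± 49.9 CPM in serum IP and 199 ± 6.70 CPM in input, and fell by 0.38 on the log2 scale in ADAR3 IP (limma adjusted p = 9.65e-05). DNAJB11, a soluble co-chaperone of BiP, had 74.8, 79.8, 80.2 and 109 CPM in ADAR3 IP, 70.6, 56.5, 31.2 and 53.9 CPM in serum IP and 104, 103, 96.0 and 105 CPM in input. ADAR3 IP thus lay above serum IP in all libraries, but the difference of 0.73 did not pass (limma adjusted p = 0.172). DNAJC3, a co-chaperone also known as P58IPK, had 29.4 to 38.3 CPM in ADAR3 IP and 38.2 to 43.1 CPM in input (limma adjusted p = 0.0636), and 33.6 to 87.2 CPM in serum IP.

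Genes of this set are known for the ER stress response element, a promoter motif read by ATF6 and XBP1. Its exact letters, CCAAT and CCACG with 9 bases of any kind between them on either strand, were searched in RefSeq promoter windows of GRCh38.p14 from 250 bases before to 50 after each start, which were held for 31 of the 33 members in 45 windows. The element was found for 6 members, namely HSPA5, HSP90B1, CALR, CANX, PDIA6 and XBP1. It was in 8 of the 45 windows of the 31 members and in 27 of all 35116 windows (0.0769%). The motif was defined on genes of this kind, so the share is a description. The matches are shown to give the places of the exact letters in these 6 members. They are written 5′ to 3′ on the strand of the gene, with the fixed letters in capitals, and CALR and the second HSP90B1 match read as the reverse complement.
HSPA5, chr9:125241391-125241409: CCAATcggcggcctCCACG
HSP90B1, chr12:103930216-103930234: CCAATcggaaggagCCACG
HSP90B1, chr12:103930321-103930339: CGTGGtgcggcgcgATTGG
CALR, chr19:12938384-12938402: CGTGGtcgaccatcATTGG
CANX, chr5:179698778-179698796: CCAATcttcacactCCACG
PDIA6, chr2:10812853-10812871: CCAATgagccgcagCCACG
XBP1, chr22:28800603-28800621: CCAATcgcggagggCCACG
HYOU1 lacked these letters in its window and carried the related element, ATTGG and CCACG with 1 base between them, at 2 places, an element found in 19 of all windows. The core TGACGTGG, whose HYOU1 match overlaps 1 of those places, was found for HYOU1, SSR3 and SSR4 and in 256 of all windows. The log2 fold changes of ADAR3 IP over input of the 6 members with the first element ran from -1.57 to -0.22, with a median of -1.09. The median was -0.66 over the 26 other tested members, among which any member without a window was counted. For serum IP over input the medians with and without the element were -0.95 and -0.68. Between the IPs they were -0.21 and -0.058.

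The lectin chaperones calreticulin and calnexin bind the same sugar on new glycoproteins, but their mRNAs moved in opposite directions between the IPs. CALR (ENSG00000179218), encoding the soluble calreticulin, had 688, 629.6, 688 and 860.2 CPM in ADAR3 IP, 485, 419, 499 and 473 CPM in serum IP and 849, 814, 813 and 828 CPM in input. All ADAR3 IP libraries exceeded all serum libraries, by 0.60 ± 0.13 on the log2 scale (SE; limma adjusted p = 0.0205). ADAR3 IP and input overlapped, and differed by -0.22 ± 0.08 on that scale (limma adjusted p = 0.0333), and serum IP lay below input by more, at -0.82 ± 0.10 (limma adjusted p = 0.00086).

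CANX (ENSG00000127022), encoding the membrane-bound calnexin, had 345, 326, 332 and 299.7 CPM in ADAR3 IP, 492, 532, 423 and 439.9 CPM in serum IP and 633, 553, 559 and 563 CPM in input. The 3 groups did not overlap, with ADAR3 IP lowest and input highest. CANX fell by 0.53 ± 0.13 between serum IP and ADAR3 IP (SE; limma adjusted p = 0.032) and by 0.82 ± 0.07 between input and ADAR3 IP (limma adjusted p = 4.03e-08).

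The disulfide bond enzymes were lower in ADAR3 IP than in input for all 5 members without overlap, as were 32.7% of all genes tested. P4HB, encoding protein disulfide isomerase itself, stood at 357 ± 38.1 CPM in ADAR3 IP (SD, n = 4), 436 ± 75.5 CPM in serum IP and 834 ± 28.5 CPM in input, a log2 fold change over input of -1.23 ± 0.08 in ADAR3 IP (SE; limma adjusted p = 1.39e-09). PDIA3, the isomerase that works with the lectin chaperones, stood at 178 ± 9.41, 209 ± 36.7 and 357 ± 21.8 CPM in the same order, and PDIA6 at 108 ± 11.9, 99.3 ± 18.0 and 208 ± 4.04 CPM. PDIA4 stood at 161 ± 17.3, 161 ± 41.3 and 242 ± 7.18 CPM. These 4 isomerase mRNAs were thus at 42.8% to 66.5% of their input level in ADAR3 IP and at 47.7% to 66.3% in serum IP, and P4HB, PDIA3 and PDIA6 also passed the test for serum IP against input.

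ERO1A, the oxidase that recharges protein disulfide isomerase, differed from the isomerases in that serum IP overlapped input. It had 32.3, 19.3, 31.3 and 31.8 CPM in ADAR3 IP, 50.7, 59.4, 65.8 and 56.0 CPM in serum IP and 62.7, 55.3, 63.2 and 60.3 CPM in input. All ADAR3 IP libraries were below all others. The log2 fold change of ADAR3 IP was -1.07 ± 0.14 over input (SE; limma adjusted p = 5.01e-06) and -1.01 ± 0.30 over serum IP (limma adjusted p = 0.0789), so the second did not pass.

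SEL1L, an adaptor of the ligase complex that sends misfolded ER proteins for degradation, stood at 65.5 ± 8.14 CPM in ADAR3 IP (SD, n = 4) and 82.3 ± 9.09 CPM in input, without overlap. It fell by 0.33 ± 0.10 (SE; limma adjusted p = 0.0108). In serum IP it had 119, 104, 79.7 and 6.93 CPM, so that the difference of mean logs between the IPs was 0.31 while the mean CPM in ADAR3 IP was 84.6% of that in serum IP. The sign of that comparison therefore differed between the mean of logs and the mean, with 1 low library in serum replicate 4.

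The subunits of the protein import machinery included the members most depleted from ADAR3 IP, and also 1 that was not called lower. SEC61A1, the channel-forming subunit of the translocon, had 515, 414, 453 and 475 CPM in ADAR3 IP, 493, 472, 435 and 287 CPM in serum IP and 492, 508, 507 and 520.2 CPM in input. The groups overlapped, and the log2 fold change over input was -0.13 with a 95% limma interval of -0.29 to 0.02 (limma adjusted p = 0.123). Over the alternatives run it ranged from -0.18 to -0.08. Without ADAR3 IP replicate 1 SEC61A1 was called lower (limma adjusted p = 0.0366).

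The small subunits of the same complex behaved otherwise. SEC61B had 21.0, 17.2, 18.0 and 16.2 CPM in ADAR3 IP and 69.3, 77.8, 67.7 and 75.6 CPM in input. SEC61G had 5.59, 8.16, 8.88 and 12.4 CPM in ADAR3 IP, below the 34.3 ± 1.61 CPM (SD, n = 4) of input. Their log2 fold changes were -1.95 ± 0.11 and -1.90 ± 0.18 (SE; limma adjusted p = 2.84e-10 and 1.1e-07), so that ADAR3 IP held 24.9% and 25.5% of the input level. In serum IP they had 26.9, 77.6, 47.4 and 11.7 CPM and 6.27, 0, 19.1 and 74.1 CPM, a spread that gave no call against either group. The 0 of SEC61G in replicate 2 allows up to 1.07 CPM there (3 reads, counting error only).

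The TRAP complex sits beside the channel and helps some signal sequences to insert. All 4 of its subunits, SSR1 to SSR4, fell in ADAR3 IP against input without overlap, as 32.7% of all genes tested did. Against serum IP, SSR1 and SSR3 fell, while SSR2 and SSR4 did not pass. SSR1 (ENSG00000124783) had 38.1, 54.0, 46.5 and 42.3 CPM in ADAR3 IP, 90.6, 84.8, 88.4 and 82.6 CPM in serum IP and 98.9, 95.7, 96.4 and 95.2 CPM in input. SSR3 (ENSG00000114850) had 67.4, 61.1, 65.5 and 63.4 CPM, then 96.2, 161, 107 and 135 CPM, then 139, 133, 143 and 138 CPM. For both, ADAR3 IP held close to 50% of the serum level, at 52.2% and 51.6%, and serum IP held 89.7% and 90.2% of the input level.

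SSR2 had 65.9, 59.8, 54.3 and 58.4 CPM in ADAR3 IP, 121, 114, 65.6 and 106 CPM in serum IP and 155, 174, 139 and 169 CPM in input. Its IPs touched at 65.6 and 65.9 CPM. SSR4 had 50.9, 40.5, 38.9 and 42.5 CPM, then 65.9, 69.4, 179 and 58.1 CPM, then 122, 144, 119 and 148 CPM. Its groups were separate between the IPs, with 1 very high serum library. The log2 fold changes of ADAR3 IP over serum IP of SSR1 to SSR4 were -0.93, -0.73, -0.92 and -0.94, with limma adjusted p of 0.0346, 0.113, 0.0285 and 0.151.

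Of the signal peptidase subunits, SPCS1 (ENSG00000114902) was the most depleted member in ADAR3 IP. It had 9.80, 10.6, 12.8 and 13.8 CPM in ADAR3 IP, 30.3, 29.0, 17.8 and 43.2 CPM in serum IP and 48.9, 52.0, 46.4 and 53.4 CPM in input. The 3 groups did not overlap. The log2 fold change was -2.01 ± 0.13 over input (SE; limma adjusted p = 1.33e-09) and -1.23 ± 0.48 over serum IP (limma adjusted p = 0.174). SPCS2 stood at 14.9 ± 3.38 CPM in ADAR3 IP (SD, n = 4), 15.8 ± 6.50 CPM in serum IP and 19.8 ± 1.82 CPM in input.

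**Figure D3:**
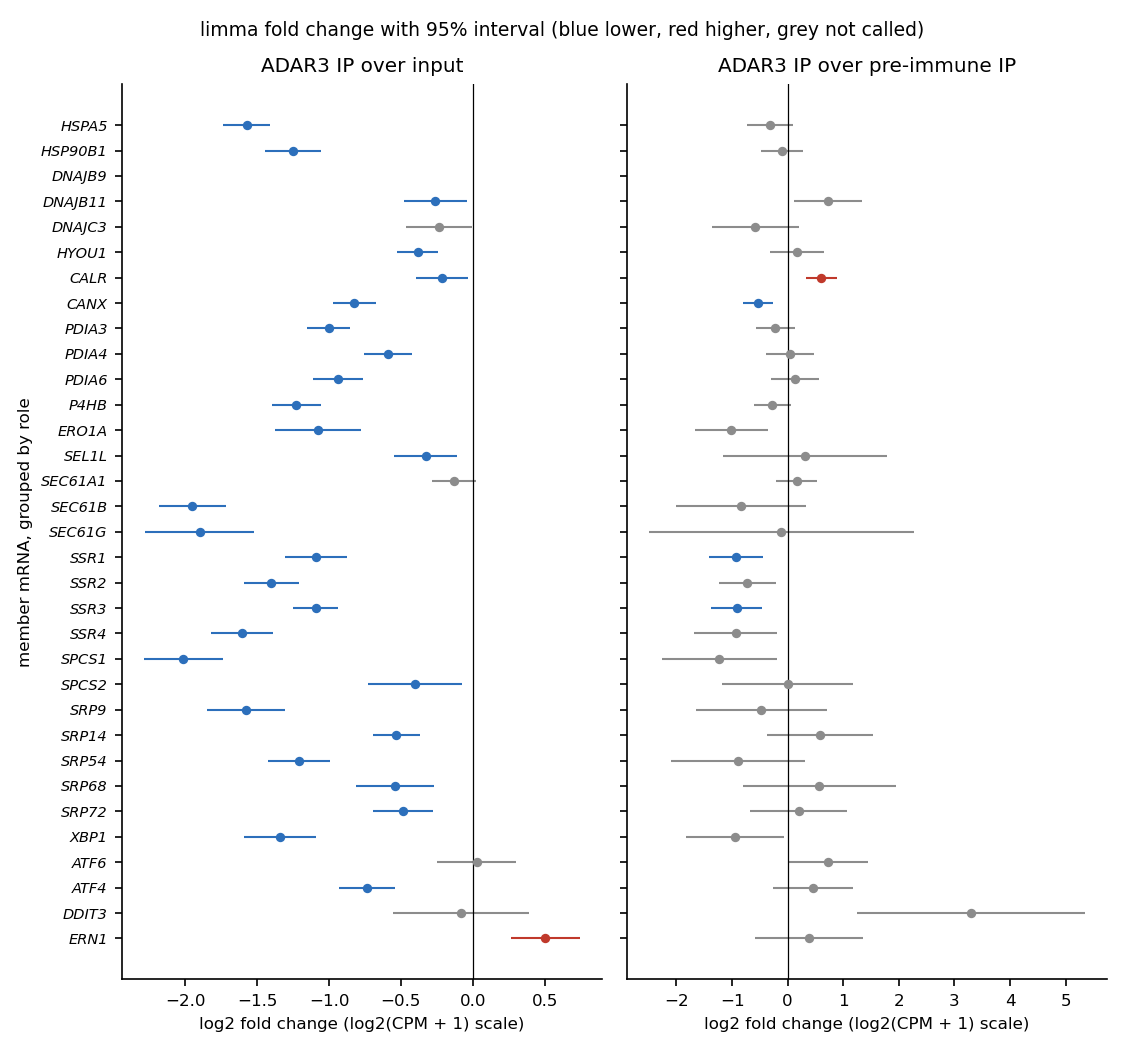
limma log2 fold change of each tested member with its 95% interval, for ADAR3 IP over input on the left and over serum IP on the right. Blue marks members called lower, red higher and grey not called. On the left 27 are lower and 1 is higher, and on the right 3 are lower and 1 is higher, with wider intervals.

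The signal recognition particle binds the emerging signal peptide. Its 5 protein members all fell in ADAR3 IP against input without overlap, as 32.7% of all genes tested did. SRP9 and SRP14 form the dimer that slows elongation and binds the Alu part of the particle's RNA. SRP9 had 37.6, 30.2, 24.1 and 23.9 CPM in ADAR3 IP and 91.9, 89.7, 86.0 and 80.4 CPM in input, and fell by 1.58 ± 0.13 on the log2 scale (SE; limma adjusted p = 1.93e-08). SRP14 had 70.1, 71.9, 74.6 and 76.8 CPM and 102, 111, 103 and 109 CPM in the same order, a fold change of -0.53 ± 0.08 (limma adjusted p = 1.32e-05). The partners of this dimer thus stood at 33.3% and 68.9% of their input levels.

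SRP54, the GTPase that recognises the signal peptide, had 25.4, 23.6, 28.5 and 26.3 CPM in ADAR3 IP and 68.4, 58.5, 58.3 and 60.0 CPM in input, and fell by 1.21 ± 0.10 on the log2 scale (SE; limma adjusted p = 3.32e-08). SRP68 and SRP72, which bind each other, stood at 69.5% and 71.1% of input. None of the 5 was called in serum IP against input or between the IPs. Their serum levels ranged widely, from 11.6 to 95.4 CPM for SRP54 and from 6.38 to 93.4 CPM for SRP68.

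The regulators of the unfolded protein response did not move together. XBP1 (ENSG00000100219), the transcription factor whose mRNA is spliced by IRE1, had 15.5, 14.5, 15.6 and 18.9 CPM in ADAR3 IP, 34.2, 37.2, 23.0 and 35.7 CPM in serum IP and 43.3, 41.6, 40.2 and 44.0 CPM in input. The 3 groups were separate, with ADAR3 IP lowest. Its log2 fold change was -1.34 ± 0.12 over input (SE; limma adjusted p = 4.68e-08) and -0.95 ± 0.41 over serum IP (limma adjusted p = 0.221). Spliced and unspliced forms cannot be told apart in counts per gene.

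ERN1 (ENSG00000178607), encoding IRE1 itself, was the only one of the 32 tested members called higher in ADAR3 IP than in input. It had 31.9, 39.9, 38.9 and 36.6 CPM in ADAR3 IP and 27.2, 24.8, 23.2 and 27.3 CPM in input, and rose by 0.51 ± 0.11 on the log2 scale (SE; limma adjusted p = 0.000955). Serum IP ranged from 11.1 to 51.2 CPM around both. The enrichment over input was therefore not matched by a call over the serum control (log2 difference 0.39 with a 95% limma interval of -0.59 to 1.36, limma adjusted p = 0.669).

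ATF6, the membrane-anchored transcription factor, had 116, 111, 87.5 and 68.8 CPM in ADAR3 IP, 97.2, 64.4, 54.0 and 29.9 CPM in serum IP and 92.2 ± 6.12 CPM in input (SD, n = 4), and passed no test. ATF4, the factor translated when PERK is active, had 55.3, 60.8, 69.5 and 72.6 CPM in ADAR3 IP, 82.3, 53.6, 40.5 and 26.7 CPM in serum IP and 105, 111, 105 and 109 CPM in input. ATF4 was below input in all IP libraries, by 0.74 ± 0.09 on the log2 scale in ADAR3 IP (SE; limma adjusted p = 2.88e-06). DDIT3, encoding the stress factor CHOP, had 10.6, 16.9, 15.0 and 29.9 CPM in ADAR3 IP and 16.0, 19.3, 16.6 and 20.3 CPM in input, but 9.91 CPM from 49 reads in serum replicate 1 and 0 in replicates 2 to 4. A count of 0 allows up to 1.07, 0.683 and 1.60 CPM in those libraries (3 reads each, counting error only), so the fitted differences of DDIT3 from serum IP depend on the pseudocount.

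The comparison of ADAR3 IP with serum IP asks which RNAs were recovered by the antibody beyond serum. Of the 32 tested members, CALR was higher and CANX, SSR1 and SSR3 were lower (limma, adjusted p under 0.05), where 3.54% of all 11303 genes tested were higher and 1.44% lower. ADAR3 IP lay entirely above serum IP for 3 members and entirely below for 7, against 10.7% and 5.22% of all genes tested. The median log2 fold change was -0.11 over the tested members and 0.27 over all genes tested. With edgeR the median was -0.0044 over all genes and -0.27 over the members, while limma with TMM factors gave 0.25 and -0.13. edgeR called the same number of members in each direction, 1 and 3, against 2.57% and 1.73% of all genes. The calls were close to the threshold. Without any 1 of the ADAR3 IP replicates 1 to 4 all 3 lower members were lost, and CALR was lost without replicate 1, 3 or 4, with 7 libraries left in each fit. The shares of all genes called fell too in these fits, to 1.41% to 1.52% higher and 0.521% to 0.716% lower. The log2 fold changes kept their direction over all alternatives run and ranged from -0.62 to -0.47 for CANX, -1.03 to -0.86 for SSR1, -1.04 to -0.79 for SSR3 and 0.51 to 0.66 for CALR. Without serum replicate 3 there were 5 lower members, with SSR2 and SRP54 added, and without serum replicate 1 DDIT3 was also called higher. Of all genes, 5.54% were higher and 1.86% lower without serum replicate 3, and 4.26% and 1.72% without serum replicate 1.

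With variance weights per group, which allow for the wider spread of the serum libraries, limma called 0 members in either direction (2 higher and 6 lower at an unadjusted p under 0.05), where 2.95% of all genes were called higher and 0.779% lower. The adjusted p then were 0.138 for CALR, 0.164 for CANX, 0.136 for SSR1 and 0.0702 for SSR3. DESeq2 on the recovered reads called 1 member higher and 10 lower, against 5.66% and 6.56% of all genes. In the authors' deposited table CALR was the only member higher, at a log2 fold change of 0.53, and 8 members were lower, against 8.75% and 5.63% of its 17946 genes with an adjusted p. In the authors' deposited table these 8 were CANX, SSR1, SSR2, SSR3, SSR4, SPCS1, XBP1 and ERO1A, with log2 fold changes from -1.44 for SPCS1 to -0.62 for CANX.

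**Figure D4:**
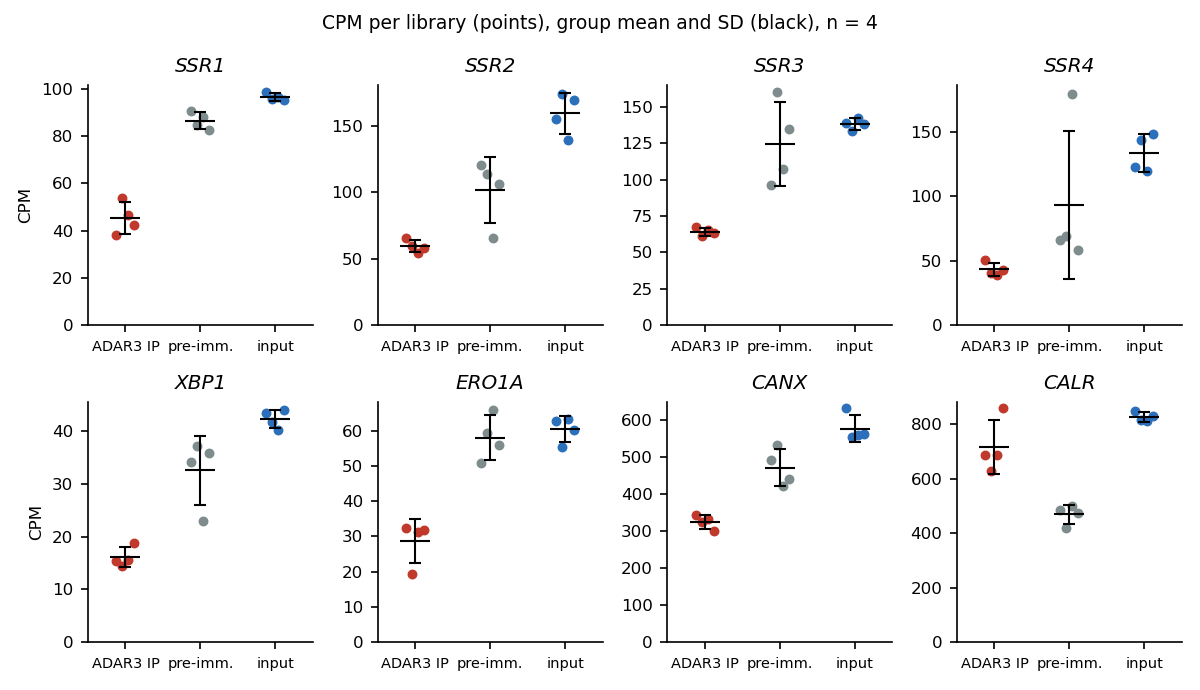
CPM of 8 members in every library, with the mean and SD of each group in black (n = 4), serum IP being labelled pre-imm., and axes that start at 0. SSR1, SSR3, SSR4, XBP1, ERO1A and CANX are lowest in ADAR3 IP in every library, SSR2 touches serum IP, and CALR lies above serum IP and next to input.

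ADAR3 IP lay below both serum IP and input, with no overlap against either, for 7 of the 32 tested members, where 4.04% of 10899 genes did so. These were CANX, SSR1, SSR3, SSR4, SPCS1, XBP1 and ERO1A. It lay above both for 0 of the 32 tested members, where 8.01% of genes did so. Other genes of this machinery were not examined. CANX, SSR1 and SSR3 passed the limma test against each control, as 1.23% of genes did. The comparisons share the ADAR3 IP libraries and are not independent of each other.

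The comparison of serum IP with input shows what serum alone recovered. Of the 32 tested members 9 were lower and 0 higher (limma, adjusted p under 0.05; 17 and 0 at an unadjusted p under 0.05), where 5.52% of all 11232 genes tested were lower and 1.43% higher. The 9 were HSPA5, HSP90B1, CALR, PDIA3, PDIA6, P4HB, DNAJB11, ATF4 and DDIT3, 7 of them chaperones and folding enzymes. Members of the import machinery were called lower in other fits, SSR2, SSR4 and SRP14 without serum replicate 3 and SPCS1 and SRP72 without serum replicate 4, each with 11 lower members. In those fits the share of all genes called lower also rose, to 9.54% and 9.55%. Serum IP lay entirely below input for 15 members and above it for 0, against 16.9% and 5.86% of all genes. The median log2 fold change was -0.69 over the members and -0.34 over all genes tested. The count of lower members was 5 without input replicate 3, where 2.29% of all genes were lower. edgeR called 6 lower and 0 higher, against 3.52% and 2.42% of all genes, and did not call DNAJB11, ATF4 or DDIT3. The call of DDIT3 was lost in 12 of 17 alternatives, and those of DNAJB11 and ATF4 in 8 of 18 each.

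Both IPs lay below input without overlap for 12 of the 32 members, where 12.5% of 10885 genes did so, and 8 passed limma in each comparison, where 4.91% did. The 8 were HSPA5, HSP90B1, CALR, PDIA3, PDIA6, P4HB, DNAJB11 and ATF4. These comparisons share the input libraries. Against input, edgeR did not call CALR or DNAJB11 in ADAR3 IP, nor DNAJB11 or ATF4 in serum IP. The 12 were HSPA5, HSP90B1, CANX, PDIA3, PDIA4, PDIA6, P4HB, SSR1, SSR2, SPCS1, XBP1 and ATF4. In serum IP the 4 TRAP mRNAs, XBP1 and ERO1A stood at 63.7% to 96.0% of input and were not called there.

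Gene span was set beside the fold changes. The 6 members with the lowest log2 fold change of ADAR3 IP over input were SPCS1, SEC61B, SEC61G, SSR4, SRP9 and HSPA5, and their genes span 5043, 8334, 6959, 4341, 12639 and 6491 bases in RefSeq annotation of GRCh38.p14. The most positive, ERN1 and ATF6, span 91003 and 197751 bases. Over the 32 tested members gene span and log2 fold change had a Spearman correlation of 0.40 for ADAR3 IP over input, 0.57 for serum IP over input and 0.018 between the IPs, given as descriptions over genes that share all libraries. DDIT3, which spans 3930 bases, had a log2 fold change of -0.08 over input and was not called. Span is not transcript length, which was not used here. RefSeq also names pseudogenes of 12 of the 33 members, among them PDIA3, SRP9, SRP14, SSR1, SSR4 and XBP1, and counts of such genes are uncertain where reads could be shared.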

How the data were processed

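Gene-level values of 12 libraries were used, 4 of each group (ADAR3 IP, pre-immune serum IP, input). Per the submitters' processing notes, STAR 2.7.7a, featureCounts, DESeq2 and GRCh38 were used, without stated roles; which annotation and strand setting were used is not given in the sources used here. The library kit keeps strand, per the labels' protocols. The values deposited are a signal, namely counts scaled by 1 factor in each library, with the IP and input tables scaled apart. Dividing by the value of 1 read gave whole numbers for 100% of values (tolerance 0.001 reads). These recovered reads were scaled to CPM. The authors' deposited log2 fold changes and adjusted p-values of the IP table were copied for the members.

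Each pair of groups was fitted alone with limma 3.58.1 (R 4.3.3) on log2(CPM + 1), with a variance trend, over genes with a mean of at least 5 CPM in the 8 libraries. Benjamini-Hochberg adjustment covered all genes tested, with a threshold of 0.05. The pseudocount understates changes of low genes. Tests across the tables rest on recovered reads, not on the separately normalized values. Alternatives were edgeR 4.0.16 and DESeq2 1.42.0 on recovered reads, other pseudocounts, minimums and scalings, group variance weights, a replicate block and leaving out each library.

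Tested on simulated data with no change, limma made 0 to 1 false calls per set in each comparison. With 200 genes changed it recovered, of 50 each, 40 raised and 20 lowered 4-fold for ADAR3 IP over serum IP, but 3 raised and 4 lowered 2-fold, with 3 false calls among 11152 genes. For ADAR3 IP over input it recovered 50 and 50 at 4-fold and 49 and 49 at 2-fold, with 14 false calls among 11248 genes. For serum IP over input it recovered 27 and 20, and 7 and 3, with 23 false calls among 11110 genes. The false calls in these sets were 3 higher and 0 lower for ADAR3 IP over serum IP. They were 2 higher and 12 lower for ADAR3 IP over input, and 2 higher and 21 lower for serum IP over input. Against input they were thus mostly lower, the direction of most member calls. These sets held 200 changed genes, while 3670 genes were called higher and 4068 lower in the data for ADAR3 IP over input. They therefore cannot show whether any member call is false.

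The members and lists were chosen with earlier results of these data known. All 33 members are named. The reference pairs 0 of 59792 genes with Ensembl IDs, so lists of other pathway genes and of cell type markers were not analysed here. Member symbols come with the list itself.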

Additional observations from a re-analysis of the deposited data

Results flagged for a closer look

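In each of the 99 sets of 4 CPM values, 33 members in 3 groups, the highest and lowest library were compared with the others by Dixon's test, and 8 sets held a library far from its group. Chance alone marks about 1 set in 20. In ADAR3 IP, DNAJB11 was at 109 CPM in replicate 4 against 74.8 to 80.2 CPM in the others. SPCS2 was at 19.96 CPM in ADAR3 IP replicate 2 against 12.8 to 13.6 CPM. ERO1A was at 19.3 CPM in ADAR3 IP replicate 2 against 31.3 to 32.3 CPM. In serum IP, SSR4 was at 179 CPM in replicate 3 against 58.1 to 69.4 CPM. DNAJB9 at 2.83 CPM and DDIT3 at 9.91 CPM had reads only in serum replicate 1, with 0 in the others. In input, CANX was at 633 CPM in replicate 1 against 553 to 563 CPM, and HYOU1 at 209 CPM in replicate 4 against 196 CPM in each of the others.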

How the results depend on the processing

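No called member changed direction in any alternative run. Of 574 pairs of member and alternative for ADAR3 IP over input, 542 kept their side of the threshold, 30 lost the call and 2 gained it; for ADAR3 IP over serum IP 540 of 573 kept it, 20 lost and 13 gained, and for serum IP over input 534 of 574 kept it, 30 lost and 10 gained. Values that were not called changed sign in 5, 27 and 11 pairs. Between the IPs, variance weights per group gave 0 higher and 0 lower members and DESeq2 10 lower. Leaving out 1 library gave 0 to 2 higher and 0 to 5 lower members between the IPs, 1 higher and 24 to 26 lower for ADAR3 IP over input, and 0 higher and 5 to 11 lower for serum IP over input. In these fits 1.41% to 5.79% of all genes were higher and 0.521% to 2.79% lower between the IPs. The shares were 29.6% to 32.7% and 33.1% to 36.7% for ADAR3 IP over input, and 0.249% to 3.43% and 2.05% to 9.55% for serum IP over input.

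Counts over all genes moved more. Between the IPs, 400 higher genes became 1210 without a filter, 259 with median-ratio factors (here those of the deposited values) and 640 with DESeq2, and 163 lower ones 741 with DESeq2 and 88 with group weights. The share of calls that were higher, 71.0%, was 57.2% with median-ratio factors. For serum IP over input, 161 higher and 620 lower became 273 and 3888 without a filter, 251 and 482 with TMM factors, 312 and 407 with median-ratio factors, 272 and 395 with edgeR, 1033 and 813 with DESeq2, and 36 and 477 with group weights. The higher share was 20.6%, 34.2% with TMM factors and 43.4% with median-ratio factors. Leaving out 1 library gave 160 to 653 higher and 59 to 315 lower between the IPs, and 28 to 384 and 231 to 1069 for serum IP over input. For serum IP over input, TMM factors, median-ratio factors and edgeR each gave 6 lower members, against 4.29%, 3.62% and 3.52% of all genes. edgeR moved the median log2 fold change of all genes from 0.27 to -0.0044 between the IPs and from -0.34 to 0.029 for serum IP over input. With TMM factors in limma these medians were 0.25 and -0.25. The cause of the shift with edgeR was not tested.

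With the replicate block, limma called 1 higher and 2 lower members between the IPs, where SSR1 was lost (adjusted p = 0.0784), 1 and 27 for ADAR3 IP over input, and 0 and 11 for serum IP over input. Of all genes, 4.76% were then higher and 1.38% lower between the IPs. The shares were 33.2% and 36.7% for ADAR3 IP over input, and 1.25% and 7.26% for serum IP over input. Same-numbered libraries correlated in their deviations at -0.0037 to 0.029, -0.099 to 0.32 and -0.0013 to 0.093 in these comparisons. Libraries of unlike number correlated at -0.080 to 0.075, -0.39 to 0.28 and -0.090 to 0.041. Of the 4 libraries of the first-named group, 1, 3 and 3 correlated best with their own number. These values do not settle whether numbers pair libraries, so fits with and without the block are given. Depth limits serum values most, at 1875461 reads in the shallowest library.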
